A study of Mus musculus with 7 samples.

Results

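The 6702 neutrophils described here came from 1 hashed pool of blood and heart cells, which holds 11826 of the 22630 cell barcodes of the series. A barcode was kept with at least 200 genes, at most 10% of its transcripts from mitochondrial genes, and a top hashtag antibody count of at least 10 that was at least 3 times the second. Of these 10329 barcodes, the neutrophils were those with at least 5 counts of the antibody to Ly6G, a surface protein of mouse neutrophils. The 1173 neutrophils of Hashtags 6 and 7 were compared with the 5529 of Hashtags 1 to 5, and the 3627 remaining cells are called Ly6G-low below. A hashtag is an antibody with a DNA barcode that marks all cells of 1 sample before samples are mixed, so each hashtag set is 1 sample.

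The series followed the immune cells of the mouse heart after myocardial infarction, made by permanently tying off the left coronary artery. This pool drew on blood or ischaemic heart of C57BL6/J mice aged 8 to 10 weeks. Its 5 conditions were no surgery (3 mice), sham surgery at day 1 (3 mice) and at day 3 (3 mice), and infarction at day 1 (5 mice) and at day 3 (5 mice), and the labels state that ischaemic heart was taken from mice with 1-day-old and 3-day-old infarcts. Viable CD11b+ cells without Ter119, B220 or NK1.1 were sorted, and Ly6G+ and Ly6G- cells were mixed at about equal numbers, so the share of neutrophils in a set says nothing of their share in a mouse. Which tissue and condition each of the 7 hashtags marks is not given in the sources used here. The sets are therefore unmapped and are called by number throughout, and neither tissue nor infarction can be read from the comparison. Each set may hold several mice or another condition, so the spread between sets holds differences between conditions as well as between mice.

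Neutrophils are short-lived granulocytes that leave the bone marrow with their granule proteins already made, circulate in blood and enter injured tissue along gradients of chemokines. Once in tissue they can themselves make chemokines, which act through receptors on other neutrophils and on monocytes, and many of these genes are switched on by the transcription factor NF-kB. In the infarcted heart they are among the first cells to arrive, and neutrophils carrying the lectin SiglecF have been described there at later stages.

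Chemokine genes were among those with the largest differences between the sets, and the promoters of 3 of them are shown because the data below turn on their transcripts. They are from RefSeq (GRCm38.p6), read 5′ to 3′ on the strand of the gene, and cover the bases 140 to 41 before the start of the gene. Capitals mark matches to a form of the NF-kB motif, GGG and TTTCC with any 2 bases between them.
Cxcl2: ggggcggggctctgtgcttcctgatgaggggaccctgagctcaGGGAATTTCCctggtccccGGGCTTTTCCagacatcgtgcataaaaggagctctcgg
Cxcl3: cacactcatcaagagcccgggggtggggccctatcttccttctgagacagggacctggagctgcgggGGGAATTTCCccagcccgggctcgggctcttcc
Ccl3: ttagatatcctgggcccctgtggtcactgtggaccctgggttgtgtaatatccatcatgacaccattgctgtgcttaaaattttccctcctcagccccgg
The stretches lie at chr5:90903759-90903858 (plus strand), chr5:90785961-90786060 (plus strand) and chr11:83649419-83649518 (minus strand). In the whole 250 bases before the RefSeq start, Cxcl2 held matches starting 97 and 78 bases before that start, and Cxcl3 held 1 match starting 73 bases before it. The RefSeq starts differ from those of GENCODE M21, which gives the gene coordinates below. The Cxcl2 window ends at chr5:90903898, past the GENCODE start at chr5:90903871. No match to this form stood in that window of Ccl3, nor in those of Cxcl10 and Ccl12, which are not shown. Searched on both strands, this form was found in 1.41% of 32851 promoters of the same length. These matches are letters in a window and show no binding. Other forms of the motif were not searched for, so a window without a match may still hold an NF-kB site. Of 10 genes looked up for this purpose, 5 were in the table.

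The 7 sums of neutrophil transcripts held 2256838 to 5759379 unique molecular identifiers (UMIs, each 1 captured transcript), from 451 cells of Hashtag7 to 1225 of Hashtag2, at a median of 3230.5 to 3909 UMIs per cell. Neutrophil markers were far more abundant in them than in the Ly6G-low cells. The 13 listed markers summed to 171713 to 216533 counts per 1000000 counts (CPM) in Hashtags 1 to 5, and to 133133 and 68451 CPM in Hashtags 6 and 7. In the Ly6G-low cells of the same sets they summed to 2497 to 8136 CPM. Around the antibody threshold, 359 barcodes with 3 or 4 Ly6G counts held 22839 CPM of S100a8 and S100a9, the main neutrophil alarmins, and 777 barcodes with 5 to 9 counts held 136391 CPM. Only 28 barcodes of the pool, 19 of them neutrophils, also occurred in the CD11b+ heart pool of the series, and 0 occurred in its other libraries.

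Barcodes with far more UMIs than their neighbours, here called deep barcodes (over 3 times the median of their set), stood apart and are given before any result. They were 3.45, 4.33, 1.99, 6.00 and 4.23% of neutrophils in Hashtags 1 to 5, and 10.5% (95% exact binomial interval 8.38 to 13%) and 10.6% (7.95 to 13.9%) in Hashtags 6 and 7. They supplied 14.4, 16.3, 7.52, 22.4 and 17.1% of the UMIs of Hashtags 1 to 5 and 40.3 and 41.0% of those of Hashtags 6 and 7, so both shares were higher in Hashtags 6 and 7, without overlap. Deep barcodes carried 1.85 to 7.09% of their UMIs as S100a8 and S100a9, against 8.39 to 22.0% in the other neutrophils, and 396 to 587 CPM of Csf1r, the receptor that defines monocytes and macrophages, against 145 to 190.2 CPM. Their median share of mitochondrial UMIs was 2.29 to 3.28%, near the 3.05 to 3.69% of the Ly6G-low cells and above the 0.248 to 0.430% of the other neutrophils.

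Markers of monocytes and macrophages moved with the comparison. The 15 listed markers summed to 2731, 3048, 2043, 3665 and 2823 CPM in Hashtags 1 to 5 and to 5867 and 7562 CPM in Hashtags 6 and 7. With the deep barcodes left out they summed to 1403 to 2003 CPM and to 1733 and 1636 CPM, and the groups overlapped. The 13 neutrophil markers then summed to 191463 to 243350 CPM in Hashtags 1 to 5, and to 197961 and 100367 CPM in Hashtags 6 and 7. Only Hashtag7 was then below the range of Hashtags 1 to 5. Dendritic cell markers summed to 369.6 to 1705 CPM and to 3901 and 1374 CPM, and without the deep barcodes to 80.0 to 407 CPM and to 176 and 223 CPM. Platelet markers, mostly Pf4, summed to 5.73 to 63.8 CPM and to 483 and 231 CPM, and without them to 6.64 to 47.2 CPM and to 43.8 and 15 CPM. Haemoglobin and other erythroid genes summed to 503 CPM in Hashtag5 and to at most 3.09 CPM in the other sets. The eosinophil genes Epx, Prg2, Prg3 and Ear6, the NK cell genes Ncr1 and Klrb1c, the heart muscle genes Myh6, Actc1 and Mb, and 5 of 6 fibroblast genes were at 0 in all sets. The 3 other heart muscle markers, nearly all Myl2, summed to 14.6 to 30.2 CPM in Hashtags 1 to 5 and to 11.9 and 7.09 CPM in Hashtags 6 and 7, without overlap, and to 0.469 to 1.84 CPM in Ly6G-low cells. Myl2 was lower by -1.57 (edgeR adjusted p = 0.0157) and did not pass without the deep barcodes (-1.14, edgeR adjusted p = 0.108). For these reasons most results are given for all neutrophils, as the selection rule defines them, and again without the deep barcodes. For others only the values of all neutrophils are given.

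**Figure D1:**
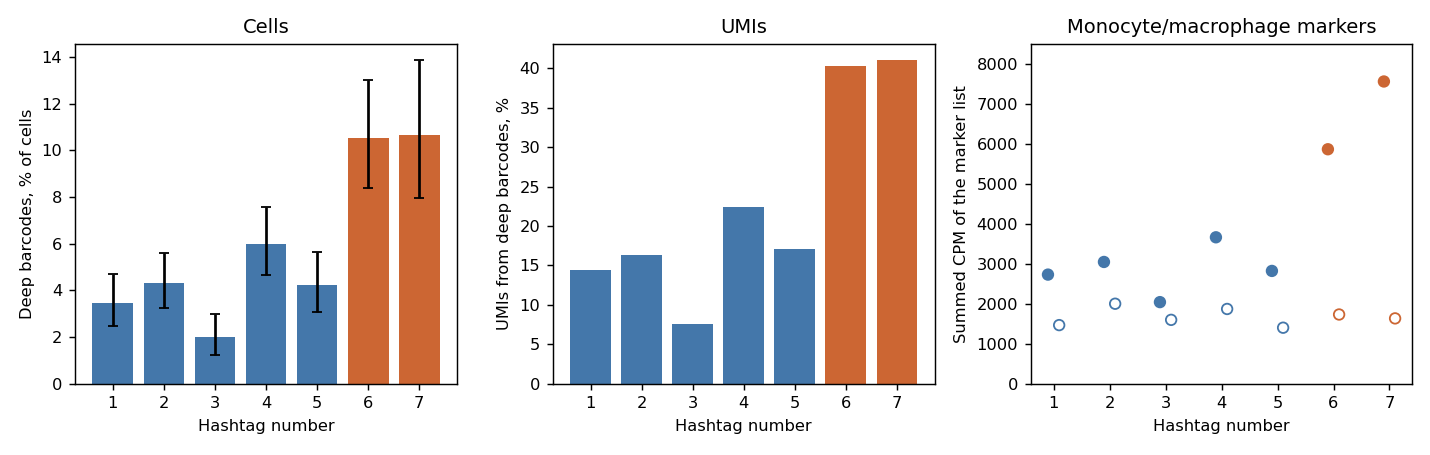
Deep barcodes among the neutrophils of each hashtag set: their share of cells (left, %, bars with 95% exact binomial intervals), their share of UMIs (middle, %), and the summed CPM of 15 monocyte and macrophage markers (right; filled, all neutrophils; open, without deep barcodes). Hashtags 1 to 5 are blue and Hashtags 6 and 7 orange; deep barcodes supplied 40.3 and 41.0% of UMIs in the latter, and the open points of both groups overlap.

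Over all neutrophils, 3334 of 9704 genes tested (34.4%) differed between Hashtags 6 and 7 and Hashtags 1 to 5 at an adjusted p under 0.05 in edgeR's quasi-likelihood test on the set sums. Of these, 1769 were higher (18.2% of the genes tested) and 1565 lower (16.1%) in Hashtags 6 and 7. The CPM of the 2 and the 5 sets did not overlap for 5095 genes (52.5%). Once the deep barcodes were removed 492 of 8651 genes passed (5.69%), 366 higher (4.23%) and 126 lower (1.46%). Of 2936 differing genes that could be tested again, 463 passed in the same direction and 2871 kept their sign. Counts of genes in the lists below are to be read against these shares. Leaving out Hashtag7 left 1516 genes in place of 3334, so this set weighs more than any other. A sum over cells cannot tell more cells with a transcript from more transcript per cell.

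**Figure D2:**
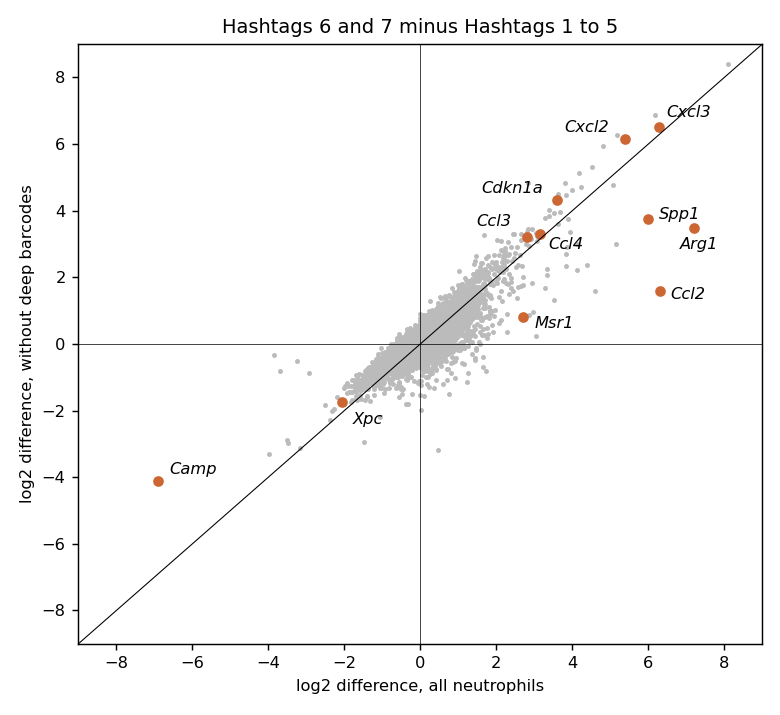
Log2 difference of each gene between Hashtags 6 and 7 and Hashtags 1 to 5 in all neutrophils (horizontal) and without deep barcodes (vertical), for genes tested both ways, with the line of equality. Cxcl2, Cxcl3, Ccl3, Ccl4 and Cdkn1a lie on or above the line, while Ccl2, Spp1, Arg1 and Msr1 lie below it.

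Chemokines that attract neutrophils and monocytes were far higher in Hashtags 6 and 7. Of 11 tested members of the chemokine list, 10 were higher and 0 lower, with a median log2 difference of 4.16 against 0.03 over all genes tested, and without the deep barcodes 7 of 8 were higher with a median of 3.25 against 0.02. Cxcl2 (chr5:90903871-90905938 on the plus strand, GENCODE M21 on GRCm38), a ligand of the neutrophil receptor CXCR2, stood at 10.2, 4.51, 4.71, 23.7 and 4.03 CPM in Hashtags 1 to 5 and at 592 and 409 CPM in Hashtags 6 and 7. Both of the latter sets were above every other set, by a log2 difference of 5.40 (SE 0.48, edgeR adjusted p = 6.98e-05). Without the deep barcodes its levels were 10.8, 5.39, 5.09, 8.75 and 4.57 CPM against 707 and 411 CPM, and the log2 difference was 6.15 (SE 0.34, edgeR adjusted p = 4.72e-06). Its neighbour Cxcl3 (chr5:90786103-90789600, plus strand), another CXCR2 ligand, stood at 1.90, 3.13, 1.28, 6.79 and 2.13 CPM against 436 and 166 CPM, a log2 difference of 6.29 (SE 0.46, edgeR adjusted p = 1.78e-05). With the deep barcodes left out Cxcl3 fell from 166 to 56.4 CPM in Hashtag7 and remained above all of Hashtags 1 to 5, which held at most 3.00 CPM, by 6.50 (SE 0.63, edgeR adjusted p = 0.000301). Of the 5 chemokine promoters found, these are the 2 with the searched form of the motif, and other forms were not searched for.

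The CC chemokines Ccl3 and Ccl4, which draw monocytes and T cells, behaved alike with and without the deep barcodes. Ccl4 stood at 22.8, 5.90, 9.63, 9.70 and 7.35 CPM in Hashtags 1 to 5 and at 135 and 107 CPM in Hashtags 6 and 7 (log2 difference 3.14, SE 0.36, edgeR adjusted p = 0.000325). Ccl3, whose promoter window held no match, stood at 10.7, 3.13, 7.70, 4.66 and 7.11 CPM against 49.5 and 68.7 CPM (log2 difference 2.79, SE 0.30, edgeR adjusted p = 0.000231). Neither overlapped between the groups, and Hashtag1 was the highest of the first 5 sets for both. Once the deep barcodes were removed the log2 differences were 3.28 (SE 0.44, edgeR adjusted p = 0.00202) for Ccl4 and 3.21 (SE 0.33, edgeR adjusted p = 0.000395) for Ccl3. Cxcl10, an interferon-induced ligand of CXCR3, stood at 55.0 and 60.7 CPM in Hashtags 6 and 7 and at most 6.98 CPM elsewhere, and without the deep barcodes it was 3.34 and 94.7 CPM in these sets, so that only Hashtag7 kept its level.

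For Ccl2, Ccl7, Ccl12 and Ccl24, most of the transcripts in Hashtags 6 and 7 were in the deep barcodes. Ccl2 (chr11:82035571-82037453, plus strand), the ligand of CCR2, stood at 4.51, 2.95, 2.14, 4.27 and 3.56 CPM against 312 and 397 CPM, a log2 difference of 6.29 (SE 0.17, edgeR adjusted p = 7.28e-09). Without the deep barcodes it was 3.33, 3.32, 2.08, 4.50 and 4.00 CPM against 14.6 and 8.27 CPM, and the log2 difference was 1.58 (SE 0.39, edgeR adjusted p = 0.0424). Ccl7, Ccl12 and Ccl24, with log2 differences of 6.64, 7.13 and 6.86, held at most 2.92, 1.50 and 2.25 CPM in any set without them and were then too low to test. Ccl9 kept a smaller difference, 2.13 with and 0.72 without the deep barcodes, and the constitutively abundant Ccl6, at 2714, 1996, 2507, 2050.5 and 1964 CPM against 2622 and 1667 CPM, did not pass in either.

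Cells with a Cxcl2 transcript were more frequent. After each cell was thinned to 1000 UMIs, which left out 1 to 8 shallower cells in each set, 0.365 to 0.923% of neutrophils of Hashtags 1 to 5 held a Cxcl2 UMI. The share was 13.6% (95% exact binomial interval 11.2 to 16.3%) in Hashtag6 and 11.5% (8.69 to 14.9%) in Hashtag7. The unthinned shares were 1.27 to 2.82% against 24.4 and 17.5%. Ly6G-low cells, thinned alike from a median of 11248 to 14723 UMIs, held 0 to 0.255% against 2.99 and 2.01%, below the neutrophils of the same set in each of the 7 sets. With the deep barcodes left out the thinned shares in Hashtags 6 and 7 were 12.4 and 11.1%, close to those of all neutrophils, and most neutrophils of both sets held no Cxcl2 UMI at this depth. These intervals cover counting error only.

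**Figure D3:**
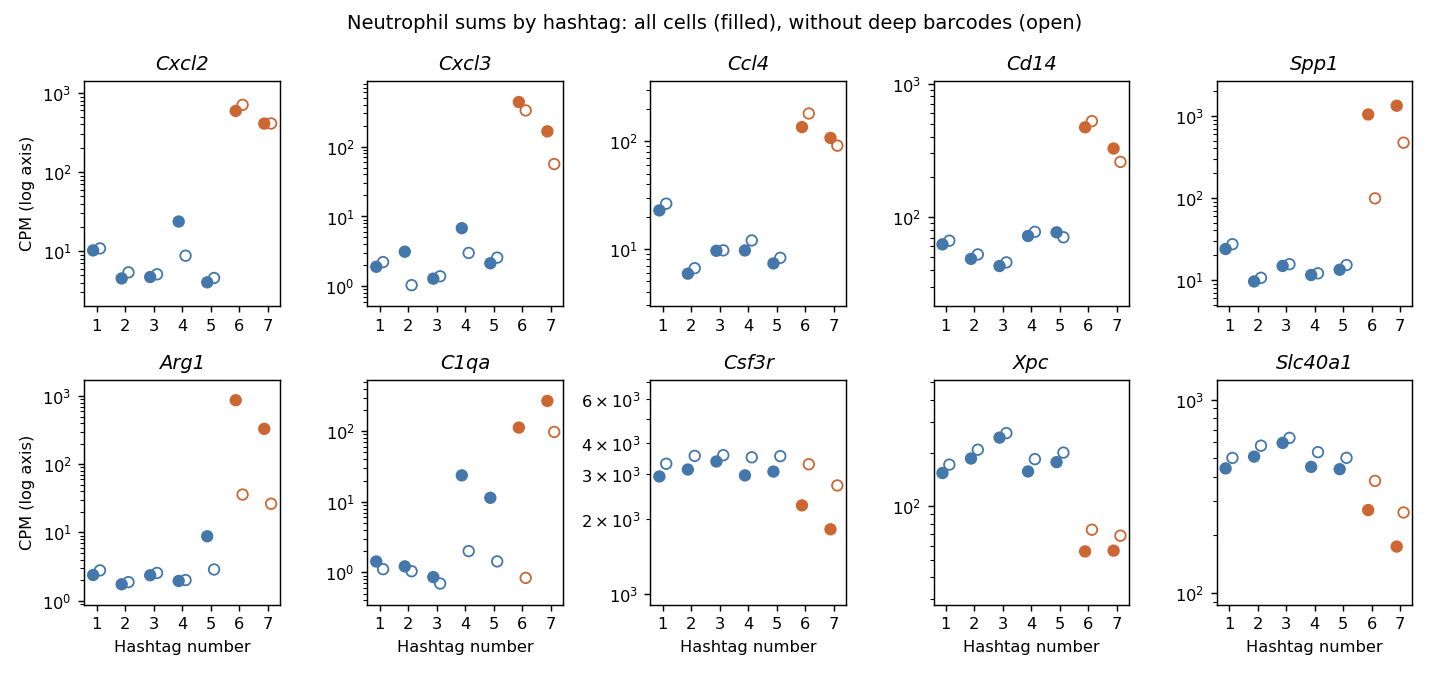
CPM of 10 genes in the neutrophil sum of each hashtag set on a log axis (filled, all neutrophils; open, without deep barcodes; blue, Hashtags 1 to 5; orange, Hashtags 6 and 7). Cxcl2, Cxcl3, Ccl4 and Cd14 stand above Hashtags 1 to 5 both ways, Arg1 and Spp1 drop without deep barcodes, and Xpc and Slc40a1 stand below both ways.

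Receptors for chemokines gave counts near those of all genes, with 3 of 13 higher and 3 lower (median log2 difference -0.18, which turned to 0.18 under scaling by total counts alone). Ccrl2, which binds chemerin without signalling, was higher with and without the deep barcodes, at 7.84, 4.34, 3.21, 2.72 and 5.22 CPM against 27.9 and 43.4 CPM (log2 difference 2.55, and 2.89 without). Ccr2, the monocyte receptor, was higher by 1.00 in all neutrophils only, and its difference was -0.04 without. The neutrophil receptor genes Cxcr2, Cxcr1 and the formyl peptide receptor gene Fpr1 were lower in all neutrophils by -0.69, -0.95 and -0.80. None of these 3 passed without the deep barcodes, where Cxcr2 stood at 2686, 2216, 2137, 2371 and 2423 CPM against 2799 and 2077 CPM and the groups overlapped.

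Among the receptors that sense microbes and damage, Cd14, the co-receptor for lipopolysaccharide, was the member with most transcripts among those higher. It stood at 62.2, 48.4, 42.8, 72.0 and 76.6 CPM in Hashtags 1 to 5 and at 469.7 and 326 CPM in Hashtags 6 and 7, and both were above every other set by a log2 difference of 2.40 (SE 0.22, edgeR adjusted p = 8.99e-05). The difference without the deep barcodes was 2.48 (SE 0.30, edgeR adjusted p = 0.00112). A Cd14 UMI was found, after thinning, in 5.01 to 7.29% of neutrophils of Hashtags 1 to 5 and in 26.1 and 14.2% of those of Hashtags 6 and 7, with 1.88 to 5.36% and 11.6 and 13.4% of the Ly6G-low cells. Trem1, an amplifier of such signals, was higher by 0.68, and by 1.06 without the deep barcodes. Fcgr1, Fcgr2b and the scavenger receptor gene Msr1, all abundant in macrophages, were higher by 2.42, 2.26 and 2.71, and by 1.58, 1.82 and 0.80 without, where Msr1 no longer passed (edgeR adjusted p = 0.259). Of the 21 tested genes of this list 6 were higher and 4 lower, and 4 and 0 without the deep barcodes, with a median of -0.15 that turned to 0.21 under scaling by total counts alone.

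Interleukin-1 genes did not move as 1 group. Il1b, the secreted cytokine, stood at 2641, 2126, 3099.5, 1909 and 2395 CPM against 2804 and 1943 CPM and did not pass (log2 difference -0.37, SE 0.25, edgeR adjusted p = 0.27). Il1r2, the decoy receptor that binds interleukin-1 without signalling (chr1:40074079-40125231, plus strand), stood at 331, 170.2, 186, 264 and 303 CPM against 881 and 681 CPM and was higher by 1.31 (SE 0.24, edgeR adjusted p = 0.00329), without overlap. Once the deep barcodes were removed Il1r2 was higher by 1.78 (SE 0.28, edgeR adjusted p = 0.00548). Of 13 tested members 4 were higher and 5 lower, among the latter Il1f9 and the caspase gene Casp4 (log2 differences -0.97 and -0.89), and without the deep barcodes 2 of 12 were higher and 0 lower.

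In the list of tumour necrosis factor genes and NF-kB feedback genes 7 of 25 were higher and 3 lower, and without the deep barcodes 3 of 24 were higher and 0 lower. Tnf stood at 7.36, 14.2, 4.92, 9.70 and 9.25 CPM against 26.9 and 43.0 CPM, higher by 1.52 (SE 0.29, edgeR adjusted p = 0.00373), and by 1.87 (SE 0.26, edgeR adjusted p = 0.00262) without the deep barcodes. Tnfaip3, which switches NF-kB off, and Icam1, an adhesion ligand, were higher by 0.97 and 1.29, and by 1.33 and 1.90 without. The median of the list was -0.0020 and turned to 0.37 under scaling by total counts alone, a shift close to that of all genes, whose median went from 0.03 to 0.39.

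Immediate early genes, switched on within minutes of a stimulus, went in both directions. Of 23 tested, 8 were higher and 7 lower in all neutrophils, and 7 of 22 and 0 without the deep barcodes (median -0.23, turning to 0.13 under scaling by total counts alone). Among the higher genes were the transcription factors Egr1, Egr2 and Egr3. Egr1 stood at 10.9, 7.99, 4.92, 15.3 and 14 CPM against 74.2 and 114 CPM, without overlap, a log2 difference of 2.76 (SE 0.27, edgeR adjusted p = 0.000109) that was 3.15 without the deep barcodes. Among the 160 cells with at least 50 Ly6G counts it was 0.27 and did not pass (edgeR adjusted p = 0.848). Ier3, at 137, 107, 68.3, 114 and 83.9 CPM against 567 and 304 CPM, was higher by 1.78, and by 2.13 without. The lower genes were abundant ones, Fos, Jund, Ier5, Dusp1, Zfp36, Klf2 and Klf6, by -0.65 to -1.21, and none of them passed without the deep barcodes. Klf2, a regulator of quiescence and migration, stood at 1349, 1355, 1354, 1289 and 1312 CPM against 855 and 639 CPM, and at 1467, 1453, 1380.2, 1347 and 1353 CPM against 1144 and 725 CPM without the deep barcodes (edgeR adjusted p = 0.092).

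Genes of survival and death went in both directions, with 9 of 22 higher and 5 lower in all neutrophils and 6 and 1 without the deep barcodes. Cdkn1a (chr17:29090976-29100727, plus strand), which encodes the cell cycle inhibitor p21, stood at 10.5, 11.3, 6.63, 12.2 and 16.8 CPM against 188 and 165 CPM, higher by 3.60 (SE 0.22, edgeR adjusted p = 8.38e-06). Without the deep barcodes it stood at 5.55, 5.19, 3.24, 5.25 and 6.86 CPM against 108 and 141 CPM, and the difference was 4.31 (SE 0.19, edgeR adjusted p = 1.49e-06). A Cdkn1a UMI was found in 0.277 to 0.728% of thinned neutrophils of Hashtags 1 to 5 and in 6.94 and 12.2% of those of Hashtags 6 and 7, while the Ly6G-low cells held 3.19 to 4.79% and 11.6 and 9.06%. The anti-apoptotic Bcl2a1a, Bcl2a1b and Bcl2a1d were higher by 2.84, 2.90 and 2.39, and by 3.45, 3.15 and 2.91 without the deep barcodes. These genes are near-identical copies, so the split of reads between them is uncertain. Bcl2l1, encoding Bcl-xL, was higher by 1.35 (1.70 without) and the pro-apoptotic Bcl2l11 by 0.56 (0.81 without), while the pro-apoptotic Bid was lower by -1.05 (-0.79 without). Mcl1, the chief survival factor of neutrophils, was lower by -0.57 in all neutrophils with overlapping sets, and did not pass without the deep barcodes.

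Genes of glycolysis and the response to low oxygen were mostly higher, 17 of 31 with 5 lower (median log2 difference 0.56 against 0.03 over all genes). With the deep barcodes left out 7 were higher and 1 lower (median 0.36 against 0.02). P4ha1, a collagen prolyl hydroxylase induced by hypoxia (chr10:59323296-59373304, plus strand), stood at 20.7, 13.9, 11.6, 18.4 and 19.9 CPM against 79.4 and 96.6 CPM, higher by 2.02 (SE 0.18, edgeR adjusted p = 6.28e-05), and by 2.29 (SE 0.21, edgeR adjusted p = 0.00018) without the deep barcodes. Pfkl, Pfkp, Tpi1, Ero1l and the oxygen sensor gene Egln3 were higher both ways, by 1.12 to 1.65 in all neutrophils and by 0.98 to 1.98 without the deep barcodes. Hif1a, Pgk1, Eno1, Ldha and Vegfa were higher in all neutrophils only. Ddit4, induced by stress and hypoxia, passed only without the deep barcodes (log2 difference 1.37). The glucose transporters went apart: Slc2a1 stood at 84.3, 55.2, 55.2, 49.5 and 64.7 CPM against 157 and 108 CPM (log2 difference 0.78) and Slc2a3 at 399.7, 301, 329.6, 283 and 285 CPM against 204 and 103 CPM (log2 difference -1.36), and neither passed without the deep barcodes. Hilpda, a lipid droplet protein induced by hypoxia and named by its size of difference, was 98.3 and 18.6 CPM in Hashtags 6 and 7 and at most 2.72 CPM elsewhere, and the difference was 5.94 (SE 0.67, edgeR adjusted p = 0.000749) without the deep barcodes.

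Antioxidant and iron genes were higher for 9 of 20 and lower for 3, and for 4 and 2 of 19 without the deep barcodes. Txnrd1, thioredoxin reductase, was higher by 1.78 (2.15 without), whereas its substrate Txn1 was lower, at 2326, 2034, 2730.3, 1848 and 2271 CPM against 1328 and 1249 CPM (log2 difference -1.16, SE 0.20, edgeR adjusted p = 0.00219). Once the deep barcodes were removed Txn1 was lower by -0.86 (SE 0.19, edgeR adjusted p = 0.0276). Slc40a1, the iron exporter ferroportin (chr1:45908068-45926523, minus strand), was lower at 441, 507, 597, 449 and 436 CPM against 268 and 174 CPM, by a log2 difference of -1.46 (SE 0.25, edgeR adjusted p = 0.00208) and of -0.98 (SE 0.24, edgeR adjusted p = 0.0402) without the deep barcodes. The ferritin gene Fth1, which stores iron, was higher by 0.61 and 0.85. Metallothionein Mt1, which binds zinc, was higher by 3.82 and 2.69. Hmox1, the haem-degrading enzyme, was higher by 1.03 in all neutrophils and differed by -0.13 without the deep barcodes.

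Of the genes of prostanoid and leukotriene synthesis 6 of 10 were higher and 3 lower, and 4 and 0 without the deep barcodes. The cyclooxygenase genes Ptgs1 and Ptgs2 were both higher, Ptgs1 at 11.2, 10.1, 9.63, 9.12 and 7.11 CPM against 26.9 and 106 CPM and Ptgs2 at 22.3, 7.99, 5.14, 5.24 and 10.7 CPM against 56.3 and 62.5 CPM. Their log2 differences were 2.34 and 2.19, and 2.71 and 2.38 without the deep barcodes. Ltc4s, leukotriene C4 synthase, stood at 1.66, 0.868, 2.57, 2.91 and 16.4 CPM against 13.9 and 148 CPM, so the groups overlapped and its level rested on Hashtag7. The leukotriene genes Alox5 and Alox5ap, and Pla2g7 of the same list, were lower in all neutrophils only.

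Genes of growth and repair held some of the largest differences of all neutrophils, and Arg1 and Spp1 lost much of theirs without the deep barcodes. Arg1, arginase (chr10:24915221-24927484, minus strand), stood at 2.38, 1.74, 2.35, 1.94 and 8.77 CPM against 867 and 329.7 CPM (log2 difference 7.20, SE 0.50, edgeR adjusted p = 1.36e-05), and at 2.77, 1.87, 2.55, 2.00 and 2.86 CPM against 35.9 and 26.3 CPM without them (3.49, SE 0.29, edgeR adjusted p = 0.000103). Spp1, the matrix protein osteopontin (chr5:104435118-104441050, plus strand), stood at 23.8, 9.55, 14.8, 11.4 and 13.3 CPM against 1039 and 1328 CPM, a log2 difference of 5.98 (SE 0.25, edgeR adjusted p = 3.36e-07), and at 98.5 and 470.4 CPM in Hashtags 6 and 7 without them, a difference of 3.75. A Spp1 UMI was found in 0.831 to 2.00% of thinned neutrophils of Hashtags 1 to 5 and in 5.14 and 14% of those of Hashtags 6 and 7, beside 5.6 and 8.39% of the Ly6G-low cells of the latter. Hbegf, a ligand of the EGF receptor, was 21.9 and 4.43 CPM in Hashtags 6 and 7 and at most 0.97 CPM elsewhere, with 24.2 and 5.26 CPM without the deep barcodes. Of 14 tested genes 8 were higher and 1 lower, and 5 of 13 and 0 without. The genes Sdc4, Dab2 and Pf4, which the naming rule picked for their size, differed by 5.83, 5.14 and 4.59, and without the deep barcodes Dab2 by 3.00 and Pf4 by 1.57 (edgeR adjusted p = 0.178), while Sdc4 was too low to test.

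Heat shock genes were higher for 7 of 11 and lower for 0, and for 2 of 10 without the deep barcodes, Hspa5 and Hsp90aa1. Hspe1, a mitochondrial chaperone, was higher by 1.41 (SE 0.17, edgeR adjusted p = 0.00046), and stood at 12.9 and 63.1 CPM in Hashtags 6 and 7 without the deep barcodes, the first within the 11.1 to 17.4 CPM of Hashtags 1 to 5. Genes of the cytosolic ribosome were higher for 30 of 82 and lower for 3, and for 2 and 0 without the deep barcodes, with medians of 0.26 and 0.01. Scaling by total counts alone made 72 of them higher and 1 lower in all neutrophils (median 0.62).

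Granule genes are made as neutrophils mature. Of 12 genes of secondary and tertiary granules 5 were lower and 1 higher (median log2 difference -1.04), and without the deep barcodes 0 were lower and 1 higher (median -0.55). Mmp8, neutrophil collagenase (chr9:7558456-7568485, plus strand), stood at 769.8, 532, 636, 619.6 and 615 CPM against 378 and 185 CPM (log2 difference -1.48, SE 0.30, edgeR adjusted p = 0.0047), and at 857, 581, 662, 724 and 664 CPM against 505 and 221 CPM without the deep barcodes (-1.10, SE 0.35, edgeR adjusted p = 0.0901). Retnlg and Hp were lower by -1.41 and -1.11 and did not pass without them. Chil3, a chitinase-like protein, was the higher member, at 210.0, 449.9, 284, 561 and 457 CPM against 1339 and 1357 CPM (log2 difference 1.43, and 2.49 without). Camp, the cathelicidin, differed among Hashtags 1 to 5 themselves, at 1.19, 449.7, 52.7, 12.4 and 395 CPM, against 2.24 and 1.33 CPM. Among the cells that were not deep, Camp stood at 1.11, 113, 56.9, 15.8 and 9.72 CPM against 2.92 and 2.25 CPM, with overlapping sets, and did not pass (log2 difference -4.11, edgeR adjusted p = 0.174). Of the primary granule genes only 2 of 6 were expressed enough to test, and Prtn3 was higher by 1.51 in all neutrophils only.

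Of 17 genes of surface trafficking and ageing 9 were lower and 3 higher, and without the deep barcodes 0 and 2. The median of this list was -0.40 and turned to 0.01 under scaling by total counts alone. Csf3r, the receptor for the neutrophil growth factor G-CSF, was lower by -0.95 and by -0.45 without, where it no longer passed (edgeR adjusted p = 0.203). Of the 8 genes of the NADPH oxidase, which makes the oxidative burst, 2 were lower, among them Rac2 by -0.79, and none was higher, and none of 7 passed without the deep barcodes (median -0.30, turning to 0.06 under scaling by total counts alone).

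Interferon-stimulated genes gave few differences, with 0 of 28 higher and 3 lower in all neutrophils and 0 of 27 in either direction without the deep barcodes, in edgeR's test. Their median was -0.04 and turned to 0.32 under scaling by total counts alone. Isg15 stood at 273, 202, 263, 101 and 205 CPM against 435 and 275 CPM, with Hashtag4 lowest and Hashtag6 highest. Oas3, an antiviral enzyme and the most lowered of the list, stood at 192, 179, 194, 122 and 151 CPM against 131 and 96.6 CPM with overlapping sets, a log2 difference of -0.90 (SE 0.24, edgeR adjusted p = 0.0171). With the deep barcodes left out its difference was -0.54 (SE 0.23, edgeR adjusted p = 0.195).

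**Figure D4:**
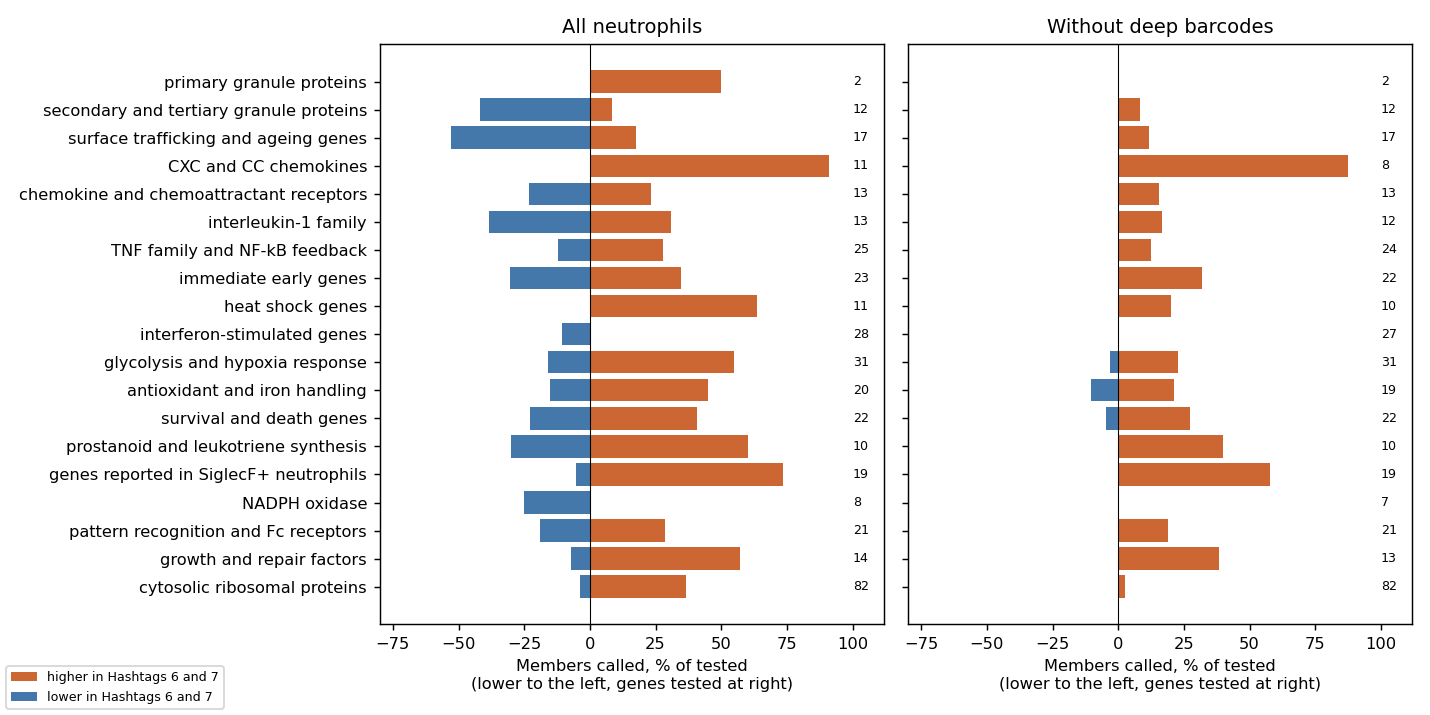
Share of the tested members of each gene list that passed an adjusted p of 0.05 in edgeR, in % (orange, higher in Hashtags 6 and 7; blue, lower), for all neutrophils (left) and without deep barcodes (right); the number at the right of each bar is the genes tested. Chemokines stand highest both ways, and nearly all blue bars are gone without deep barcodes.

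A set of genes lower in Hashtags 6 and 7 held without the deep barcodes. Xpc, a DNA damage recognition factor (chr6:91489305-91515888, minus strand), stood at 154, 186, 244, 157 and 178 CPM against 55.8 and 56.3 CPM, a log2 difference of -2.07 (SE 0.22, edgeR adjusted p = 0.000239). Once the deep barcodes were removed it stood at 172, 209, 259, 185 and 201 CPM against 73.9 and 68.4 CPM (-1.76, SE 0.21, edgeR adjusted p = 0.00112), and in thinned cells a Xpc UMI was found in 15.3 to 21.9% against 5.83 and 5.19%, with 1.01 to 5.22% of Ly6G-low cells. Scnn1a, a subunit of the epithelial sodium channel, Rab11fip4, a recycling endosome protein, Bmx, a tyrosine kinase, Rnf144a, a ubiquitin ligase, Tbc1d10c and Prr5l were lower by -1.69, -1.51, -1.55, -1.61, -1.56 and -1.48. The same 6 genes were lower by -1.19, -1.03, -1.13, -1.17, -1.13 and -1.05 without the deep barcodes, and each passed. Ighm, the heavy chain of immunoglobulin M and a B cell gene, was lower by -1.59 and -1.38. It stood at 199, 142, 176, 131 and 126 CPM against 64.5 and 67.4 CPM. The 6 B cell markers, of which Ighm is 1, summed to 221, 162, 197, 898 and 157 CPM against 78.9 and 87.3 CPM. Ighm thus made up most of this sum in every set but Hashtag4, and the sum is no separate measure of B cells. The part of B cells in the Ighm difference was not tested. Abtb1 and Asb7, lower by -1.44 and -1.46, differed by -0.94 and -1.07 without the deep barcodes, sizes near those of the 6 genes, and did not pass there (edgeR adjusted p = 0.0835 and 0.117).

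Genes reported in SiglecF+ neutrophils were higher for 14 of 19 and lower for 1 (median log2 difference 1.03), and for 11 and 0 without the deep barcodes (median 0.99 against 0.02 over all genes). Siglecf itself differed between Hashtags 6 and 7. It stood at 14.3, 19.8, 19.0, 19.6 and 18.5 CPM in Hashtags 1 to 5, at 19.9 CPM in Hashtag6 and at 95.3 CPM in Hashtag7. After removal of the deep barcodes it was 27.5 and 137 CPM in Hashtags 6 and 7. In all neutrophils Siglecf was not higher once Hashtag7 was left out (log2 difference -0.10). That fit was not run without the deep barcodes. After thinning, a Siglecf UMI was found in 1.27 to 1.75% of neutrophils of Hashtags 1 to 5. The share was 3.61% in Hashtag6 and 10.6% in Hashtag7. Xbp1, a factor of the unfolded protein response and another member, was higher in both sets, at 195, 223, 181, 231 and 169 CPM against 560.0 and 367 CPM (1.20 without). Hashtag7 also stood apart in S100a8, at 51501 and 26658 CPM in Hashtags 6 and 7 against 66582 to 85188 CPM in all neutrophils. Without the deep barcodes S100a8 and S100a9 together took 17.0 and 8.39% of UMIs in Hashtags 6 and 7. They took 16.6 to 22.0% in Hashtags 1 to 5, so only Hashtag7 was then below that range. The complement gene C1qa without the deep barcodes held 97.7 CPM in Hashtag7 and at most 2.00 CPM elsewhere. Genes per cell, thinned to 1000 UMIs, had a median of 491 to 532 in Hashtags 1 to 5, 528.5 in Hashtag6 and 615 in Hashtag7.

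Surface proteins were measured on the same cells by antibodies with DNA barcodes, as the share of a protein in all antibody UMIs other than hashtags and Ly6G. CD11b, the integrin chain used in the sort, took 7.74, 7.44, 8.01, 8.42 and 9.05% in Hashtags 1 to 5 and 16.4 and 15.4% in Hashtags 6 and 7. The groups did not overlap, and without the deep barcodes CD11b was 13.6 and 11.4% in Hashtags 6 and 7, still outside the range of the other sets. Median counts per cell moved alike, from 16 to 20.5 up to 25 and 24 UMIs. Lower quartiles overlapped, at 10 to 13 UMIs against 12 and 11. In Ly6G-low cells the median CD11b count was also higher, at 41 and 47 UMIs against 23 to 31. Whether the rise differed between the classes was not tested for antibodies. The transcript of CD11b, Itgam, stood at 379.8, 434, 425, 457 and 408 CPM against 655 and 579.6 CPM, which the test did not separate after scaling (log2 difference 0.20, SE 0.14, edgeR adjusted p = 0.29).

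Of 13 antibodies compared, 5 did not overlap, among them CD11b higher and CXCR4, Msr1 and CCR3 lower. The 2-sided exact permutation p was 0.0952 for each, the smallest that 2 against 5 sets can give, and 0.248 after Benjamini-Hochberg adjustment over the 13. CXCR4, Msr1 and CCR3 overlapped without the deep barcodes. Their median counts per cell were also level, 11 UMIs against 12 and 11 for CXCR4 and 15 in all sets for CCR3, while Msr1 had 4 against 5 and 5, opposite to its share. A share falls when another protein takes more, so these 3 are not read as lower levels. SiglecF took 2.95 to 3.15% in Hashtags 1 to 5, 3.10% in Hashtag6 and 10.2% in Hashtag7. Its median counts were 7 or 8 UMIs in the first 6 sets and 20 in Hashtag7, so protein and transcript stood out in the same set. Without the deep barcodes SiglecF took 3.06 to 3.30% in Hashtags 1 to 5 and 3.46 and 11.3% in Hashtags 6 and 7. Hashtag6 was then also just above Hashtags 1 to 5. Ly6G-low cells had a median of 7 SiglecF UMIs in all 7 sets. CD54, the protein of Icam1, was 7.54% in Hashtag7 and 5.30 to 6.06% in the other sets. Its median counts were 15 UMIs in each of Hashtags 1 to 5 and 17 and 21 UMIs in Hashtags 6 and 7, without overlap. In Ly6G-low cells the median CD54 counts were 21 to 26 UMIs against 30 and 28, also without overlap.

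**Figure D5:**
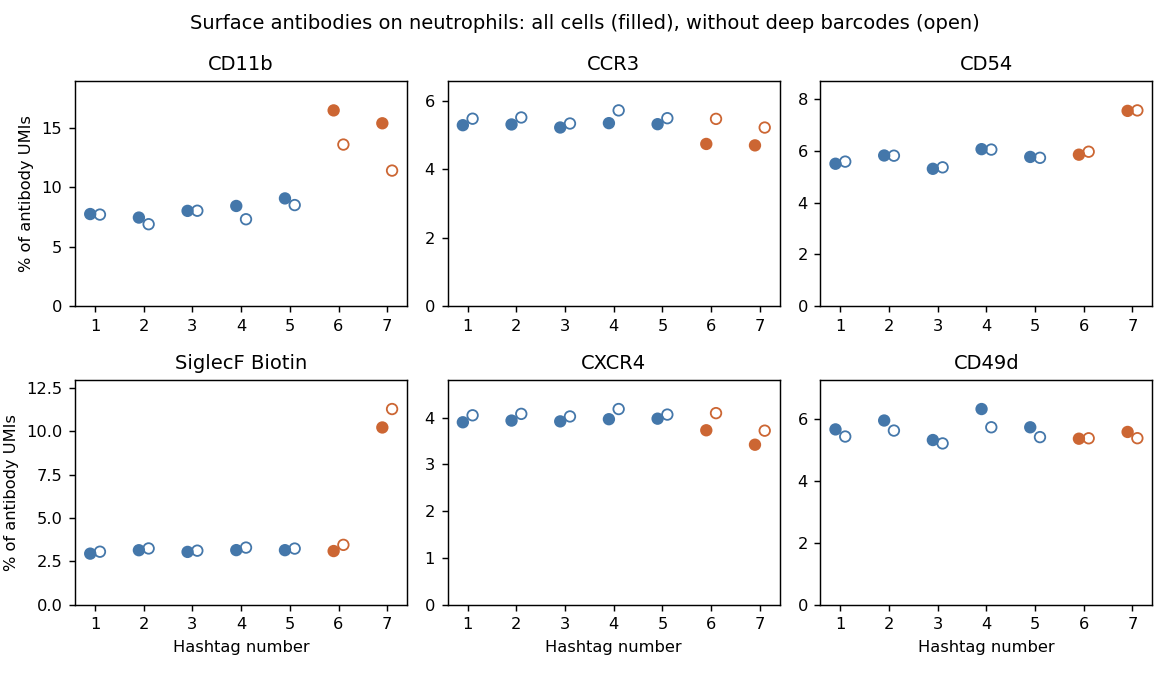
Share of 6 surface proteins in the antibody UMIs of neutrophils by hashtag set, in % (filled, all neutrophils; open, without deep barcodes; blue, Hashtags 1 to 5; orange, Hashtags 6 and 7). CD11b is highest in Hashtags 6 and 7 both ways, and SiglecF is far higher in Hashtag7 than in any other set.

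Whether a difference was particular to neutrophils was tested against the Ly6G-low cells of the same 7 sets. The difference between Hashtags 6 and 7 and Hashtags 1 to 5 was not the same in both classes for 1586 of 10892 genes (14.6%), of which 985 (9.04%) had the higher value in neutrophils and 601 (5.52%) the lower. With the deep barcodes left out 237 passed, and leaving out Hashtag7 left 270. In Ly6G-low cells alone 1953 of 10755 genes differed (18.2%). Of 3250 genes that differed in all neutrophils and were tested there, 1003 differed in the same direction and 37 in the opposite one. The neutrophil sums behind this overlap hold the deep barcodes, and it was not counted without them.

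Not every large difference was shown to be particular to neutrophils. Cxcl2 in Ly6G-low cells stood at 1.30, 1.18, 1.27, 0.798 and 1.41 CPM in Hashtags 1 to 5 and at 81.1 and 28.9 CPM in Hashtags 6 and 7, a log2 difference of 5.54 beside 5.40 in neutrophils, and the class difference did not pass (edgeR adjusted p = 0.973). Arg1 and Spp1 likewise differed by 7.45 and 5.11 in Ly6G-low cells, with no class difference in the full sums (edgeR adjusted p = 0.725 and 0.696). Once the deep barcodes were removed from the neutrophils, the class difference was -4.09 log2 units for Arg1 and -2.24 for Spp1 (edgeR adjusted p = 0.000119 and 0.142), and the former passed. By contrast Ccl3 stood at 12.4, 8.09, 6.64, 9.17 and 14.3 CPM against 19.7 and 4.93 CPM in Ly6G-low cells, and its difference was larger in neutrophils by 2.60 (SE 0.49, edgeR adjusted p = 0.00632). Tnf was larger in neutrophils by 1.73 (SE 0.27, edgeR adjusted p = 0.00297), Cdkn1a by 1.91 (SE 0.20, edgeR adjusted p = 0.000509) and Bcl2a1a by 2.33 (SE 0.34, edgeR adjusted p = 0.00225), and these 4 passed without the deep barcodes too (edgeR adjusted p = 0.0145, 0.00514, 0.000119 and 0.00633). Txn1, lower in neutrophils, stood at 427, 511, 437, 464 and 441 CPM against 535 and 471 CPM in Ly6G-low cells, with a class difference of -1.29 (SE 0.19, edgeR adjusted p = 0.00205). Vegfa went the other way, with 0.325, 1.03, 0.475, 0.399 and 1.01 CPM against 12.6 and 19.0 CPM in Ly6G-low cells and a class difference of -3.77 (SE 0.44, edgeR adjusted p = 0.000853).

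Some of these calls rested on 1 of the 2 sets. Of 176 list and named genes past the threshold in all neutrophils, 104 stayed past it when each of the 7 sets was left out in turn. These include Cxcl2, Cxcl3, Ccl3, Ccl4, Cd14, Tnf, Il1r2, Cdkn1a, P4ha1, Slc40a1 and Xpc. For 35 genes the call ended only without Hashtag7, among them the lower genes Cxcr2 (log2 difference -0.37 without that set), Fpr1 (-0.53), Fos (-0.79), Dusp1 (-0.91), Zfp36 (-0.56), Klf6 (-0.47) and Oas3 (-0.59). The higher genes Tnfaip3 (0.82), Bcl2l11 (0.30) and Ltc4s (1.36) were also among them. For 14 genes the call ended only without Hashtag6, among them Egln3 (0.62 without that set), Pfkp (0.59), Hif1a (1.04), Pgk1 (0.31), Slc2a1 (0.28), Vegfa (0.69), Trem1 (0.50), Xbp1 (0.35) and Hbegf (3.29). The calls of Fth1, Mcl1, Ccr2, Eno1, Siglecf and Camp ended without any of several sets.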

How the data were processed

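Single cells of 1 hashed pool were sequenced with a 10x Genomics 3' kit. The authors deposited UMI counts per gene, hashtag and surface antibody for each barcode, without normalization. Cell Ranger 3.0.2 stands in the file headers and the build mm10 in the submitters' processing notes; the annotation release is not given in the sources used here. The hashtag rule removes doublets between hashtags whose top count is under 3 times the second, and others between hashtags may remain. Doublets within a hashtag remain, since no doublet caller was run.

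UMIs were summed per gene over the neutrophils of each hashtag. Sums were fitted in edgeR 4.0.16 (R 4.3.3) with filterByExpr, TMM scaling and the two-sided quasi-likelihood test, Benjamini-Hochberg adjusted over all genes tested, threshold 0.05. Each SE was derived from this test, as the absolute log2 difference over the square root of its F statistic. TMM factors were 1.08 and 1.33 in Hashtags 6 and 7 and 0.893 to 0.964 in Hashtags 1 to 5, so CPM (relative to the total of the sum, unscaled) can differ in ratio from the fitted log2 difference. The class difference was an edgeR interaction over 14 sums with the hashtag set as a block, since both classes of a set come from the same sample. Antibody shares were compared by a two-sided exact permutation test. On simulated sums with 200 changed genes and a coefficient of variation of 20%, the neutrophil comparison recovered 58.5% of changes of 1 log2 unit and 100% of those of 2, with 4.10 and 6.10% false calls, and the class difference 13.5% and 98.0%.

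Named genes were the 12 highest and the 12 lowest differences past the threshold whose sets did not overlap, with a mean of at least 50 CPM on the higher side that reached 1 part in 5 of the CPM of Ly6G-low cells. Beside these came the largest change of each gene list among its genes past the threshold and with such a mean. Ly6g, haemoglobin genes, genes of the ribosome and the mitochondrial genome, and unnamed Gm or Rik models were kept out of these. The rule gave 38 genes. Some genes and 1 antibody are not reported here, though they stay in the counts. Genes of the lists that are given beside them, Il1b, Itgam, S100a8 and C1qa included, were chosen with their values in view. The members, the gene lists and the marker lists were chosen with earlier results of these data known. Coordinates are from GENCODE M21, which held 9697 of the 9704 genes tested. P-values measure the spread between hashtag sets, since nothing states which mice a set holds.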

Additional observations from a re-analysis of the deposited data

Results flagged for a closer look

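Within Hashtags 1 to 5, 6 values stood far from the other 4 sets, which chance gives in about 1 of 20 groups. Hashtag5 was high for Arg1 (8.77 CPM), Sdc4 (2.61 CPM), Pf4 (43.1 CPM) and Ltc4s (16.4 CPM). Hashtag3 was low for Hspe1 (23.3 CPM), and Hashtag1 was high for the CD64 antibody (1.95% of antibody UMIs). Without the deep barcodes Hashtag5 held 2.86 CPM of Arg1, 22.6 CPM of Pf4 and 2.29 CPM of Ltc4s.

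For the named genes given next, the difference between Hashtags 6 and 7 and Hashtags 1 to 5 itself differed between neutrophils and Ly6G-low cells, by the edgeR interaction. It was more positive in neutrophils, in log2 units, for Ccl12 (4.90), Ccl2 (2.07), Hilpda (1.91), Cdkn1a (1.91), Msr1 (1.40), Mt1 (1.30), Hspe1 (1.11), P4ha1 (1.05) and Icam1 (0.95). It was more negative for Rac2 (-0.48), Abtb1 (-0.78), Xpc (-0.82), Tbc1d10c (-1.27), Mmp8 (-1.38), Asb7 (-1.45), Ly6g (-1.78) and Camp (-14.32). Ly6g encodes the antigen that split the classes. The Camp value joins a log2 difference of 7.84 in Ly6G-low cells and one of -6.89 in neutrophils. In Ly6G-low cells Hashtag6 held 449 CPM and the other sets at most 2.49 CPM, while in neutrophils Hashtags 2 and 5 held the highest levels. These levels rested on few cells. After thinning, a Camp UMI was found in 0.373% of 268 Ly6G-low cells of Hashtag6. Among neutrophils it was found in 4 of 1221 cells of Hashtag2 and in 5 of 1012 of Hashtag5. Without the deep barcodes, which were removed from the neutrophils only, the class difference passed for Hilpda, Cdkn1a, Icam1 and Camp (edgeR adjusted p = 0.0235, 0.000119, 0.032 and 0.0032) and for no other of these. It turned negative there for Ccl12 (-1.48), Ccl2 (-2.84), Msr1 (-0.67) and Mt1 (-0.04), and kept its sign for the others.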

How the results depend on the processing

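The number of genes that differed in neutrophils, 3334 (1769 higher, 1565 lower), fell to 492 (366 and 126) without barcodes over 3 times the median UMIs of their set, and to 418 (290 and 128) among cells with no UMI of 7 monocyte and macrophage genes. It was 279 (175 and 104) with at least 50 Ly6G counts, which keeps 160 cells. With a top hashtag at least 10 times the second, which keeps 6436 cells, it was 2431 (1317 and 1114). Among alternatives chosen after seeing the data, it was 489 (369 and 120) without barcodes over 2 times the median, and 2089 (1139 and 950) among cells with no C1qa, C1qb or C1qc UMI. Fewer cells and fewer tested genes enter each of these. Scaling by total counts alone gave 3916 genes but 3385 higher and 531 lower, with the median of all genes at 0.39 in place of 0.03. DESeq2 1.42.0 gave 2995. Leaving out each set gave 1516 to 3440 genes (945 to 1852 higher, 571 to 1588 lower), the lowest without Hashtag7.

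The class difference, 1586 genes, was 3093 with total counts alone, 64 with at least 50 Ly6G counts, 237 without barcodes over 3 times the median UMIs, and 270 to 1818 when each set was left out (270 without Hashtag7). With no replicate block for the hashtag set it was 1026. No paired analysis was possible for the main comparison because Hashtags 6 and 7 share no set with Hashtags 1 to 5. Antibodies without overlap, 5 in all, were 3 without the deep barcodes and 5 to 9 when each set was left out (9 without Hashtag6). Of 38 named genes 18 stayed past the threshold, in 1 direction, under every alternative that tested them, and none turned. These 18 include Ccl7, Ccl12, Ccl24 and Sdc4, which were too low to test without the deep barcodes. Ccl12 and Ccl24 were tested in 15 alternatives and Ccl7 and Sdc4 in 16, while Cxcl2, Cxcl3 and Xpc were tested in 19. At 2256838 UMIs or more per sum, changes of 1 log2 unit were recovered only in part on simulated data.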

Other observations

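Several genes with large differences without the deep barcodes are in none of the lists and were picked after their values were seen. Clec4n, the fungal sensor Dectin-2, stood at 42.5, 16.8, 25.5, 24.2 and 32.7 CPM in Hashtags 1 to 5 and at 252 and 364 CPM in Hashtags 6 and 7. Scimp, an adaptor of Toll-like receptor signalling, stood at 2.85 to 3.99 CPM against 58.2 and 111 CPM. Bhlhe40, a transcription factor of stress and hypoxia, stood at 8.99 to 20.8 CPM against 133 and 138 CPM. None of the 3 overlapped, and their log2 differences were 3.24, 4.70 and 3.18 without the deep barcodes (edgeR adjusted p = 0.0003, 6.37e-05 and 2.56e-05). Nt5e, the enzyme CD73 that makes adenosine, stood at 2.26 to 6.18 CPM against 33.1 and 49.6 CPM (log2 difference 3.31 without the deep barcodes).

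Ffar2, a receptor for short-chain fatty acids, and Cish, a feedback inhibitor of cytokine signalling, were higher in both sets and several times higher in Hashtag6 than in Hashtag7, at 67.2 and 16.8 CPM and at 52.8 and 12.4 CPM. Car4, a membrane carbonic anhydrase, was at 0 in all of Hashtags 1 to 5 and at 8.71 and 10.6 CPM in Hashtags 6 and 7. Lyz2, lysozyme, overlapped between the groups in all neutrophils (log2 difference -0.55, edgeR adjusted p = 0.0591) and was lower without the deep barcodes, at 3500 to 5039 CPM against 2288 and 1969 CPM (log2 difference -1.18, edgeR adjusted p = 0.0156).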
